A study of Homo sapiens with 12 samples.

Results

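The genes described here encode the working parts of the lysosome, in 3 classes of 22 hydrolases, 10 membrane proteins and 15 V-ATPase subunits. The list was drawn up by function with earlier results of these data known, and its genes were matched by symbol among the 54127 genes counted in the data. All 47 passed the low-count filter of at least 10 counts in at least 6 libraries, which 14505 genes passed.

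RNAseq was performed on C4-2 cells, an androgen-responsive prostate cancer line derived from LNCaP, and asked which transcripts respond to inhibition of the kinase PBK. There were 6 libraries of cells treated with the vehicle DMSO and 6 of cells treated with PBKi, the small molecule HI-TOPK-032, at 1 µM. Treatment lasted 6 h in RPMI with 10% serum, and the labels describe the RNA as coming from flow sorted cells. A single line, dose and time point were sampled, and the labels do not say whether replicates came from separate cultures, so p-values measure the spread between these libraries. Each library held 9663203 to 28029908 reads on genes, and DMSO replicate 5 had the fewest. In PBKi, replicates 3 and 6 had the largest share of reads outside genes, which was 5.94% to 9.30% in PBKi and 5.74% to 6.96% in DMSO. All 8 prostate luminal markers on the list were expressed, with summed levels of 4373 to 5140 CPM (the count of a gene relative to the size of its library, after TMM normalisation) in DMSO and 2029 to 2917 CPM in PBKi. Most of this sum in DMSO was KLK3, which fell from 2959 to 1131 CPM (group means), and of the 8 markers 5 were lower, FOLH1 was higher (log2 fold change 0.33) and EPCAM and KRT8 did not pass the test. With 12 leukocyte markers the sum was 2.11 to 4.28 CPM in DMSO and 2.55 to 5.25 CPM in PBKi, most of it CD163, and 2 of these markers had no read in any library.

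Lysosomes are acidic compartments in which proteins, glycans and lipids delivered by endocytosis and autophagy are broken down. Their acid pH is kept by the V-ATPase, a rotary pump whose cytosolic V1 sector hydrolyses ATP and whose membrane V0 sector moves protons, while transporters and channels in the membrane let breakdown products and ions out. Many lysosomal genes carry a CACGTG-type element in their promoter that is bound by the transcription factors TFEB, TFE3 and MITF.

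Of the 47 genes, 30 were higher in PBKi, 2 were lower and 15 did not pass the test, the quasi-likelihood test of edgeR at an adjusted p under 0.05 (Benjamini-Hochberg, over all genes tested). Among all genes tested, 20.1% were called higher and 21.5% lower, so the share called higher was 63.8% here against 20.1% in the background. In 27 of the 47 genes every PBKi library lay above every DMSO library, which occurred in 10.5% of all genes, and in 1 gene every PBKi library lay below, which occurred in 9.68%. In RNA from bulk cultures, a change in the level per cell and a change in the mix of cells cannot be told apart. With log2 fold change of at least 0.5, 14 of the 47 genes were called higher against 8.81% of all genes, and 3 reached a log2 fold change of 1 against 3.26%. Of the 47 estimates 39 were above 0, against 48.1% of those of all genes. The median log2 fold change was 0.30, and that of all genes tested was -0.01.

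Higher genes were found in all 3 classes, and lower genes in the hydrolases only. Among membrane proteins 9 of 10 were higher and none was lower, with a median log2 fold change of 0.52. This class was listed with NPC2, which is a soluble protein of the lumen. V-ATPase subunits were higher in 10 of 15 cases, none was lower, and their median was 0.25. Hydrolases were higher in 11 of 22 cases and lower in 2, again with a median of 0.25, but they covered the widest range, from -0.25 to 1.19. The range was -0.10 to 0.82 for membrane proteins and -0.10 to 0.59 for V-ATPase subunits. No test between the classes was made, because their genes are not replicates of a condition.

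**Figure D1:**
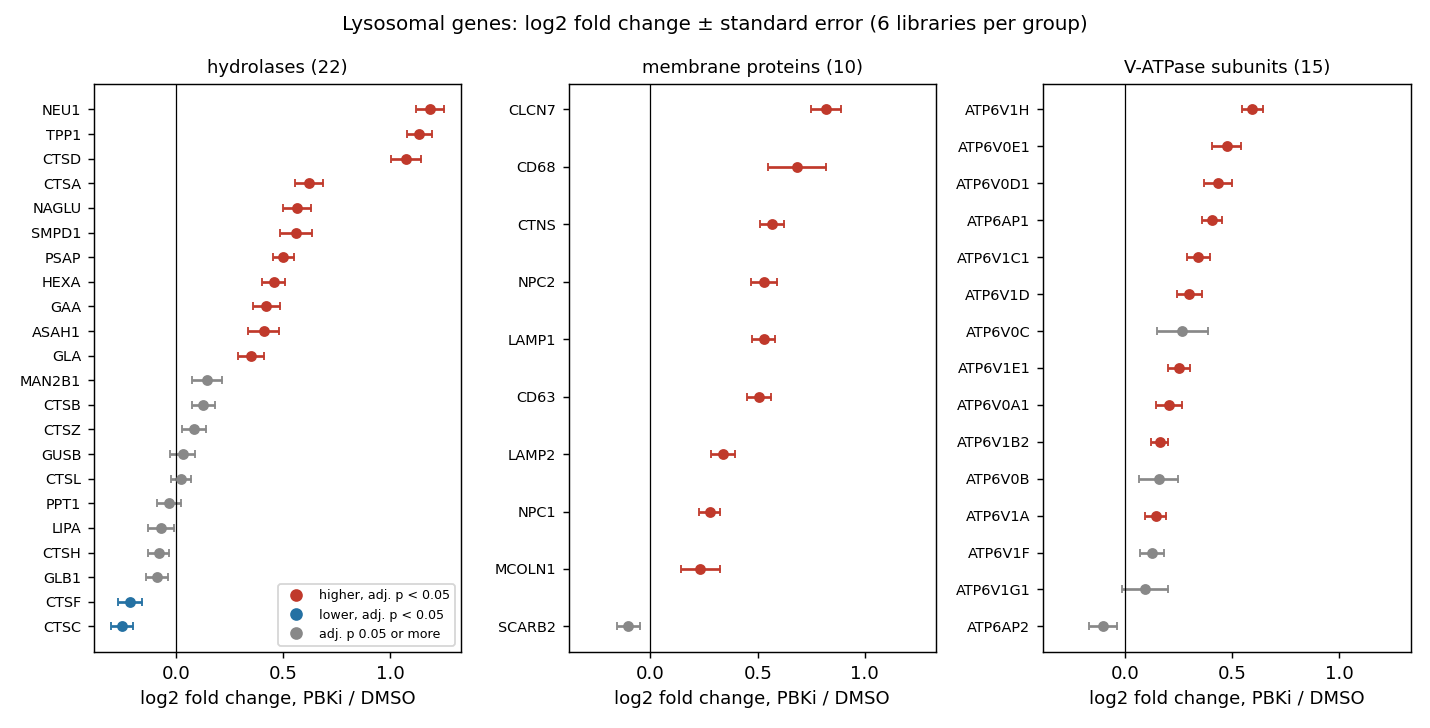
Log2 fold change in PBKi against DMSO for each of the 47 genes by class, with bars of ± 1 standard error from edgeR and the call by colour. The 3 genes above 1 are hydrolases, and the V-ATPase subunits lie between -0.10 and 0.59.

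Summed within a library, the transcripts of each class separated the groups. Hydrolases summed to 2478 to 2634 CPM in DMSO (median 2548) and to 3127 to 3364 CPM in PBKi (median 3304). Membrane proteins summed to 1230 to 1314 CPM in DMSO (median 1270) and to 1442 to 1573 CPM in PBKi (median 1548). For the V-ATPase the sums were 1597 to 1811 CPM in DMSO (median 1686) and 1908 to 2071 CPM in PBKi (median 2026). In none of the classes did the groups overlap, and the ratios of the means were 1.29, 1.20 and 1.18 in that order. A few abundant transcripts weigh on these sums, since PSAP made up 31.2% of the hydrolase sum in DMSO and SCARB2 made up 33.6% of the membrane protein sum.

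Within PBKi, the libraries were not alike. Among the 30 genes called higher, PBKi replicate 5 had the lowest PBKi value for 23, and PBKi replicate 3 had the highest for 12. In DMSO, replicate 6 had the lowest value for 12 of them and replicate 5 the highest for 11. Without PBKi replicates 3 and 6, an alternative chosen after seeing the data, 29 of the 47 genes were higher and 1 was lower. Over all genes that fit called 2306 of 14712 higher and 2076 lower, against 2921 and 3125 of 14505 with all libraries.

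**Figure D2:**
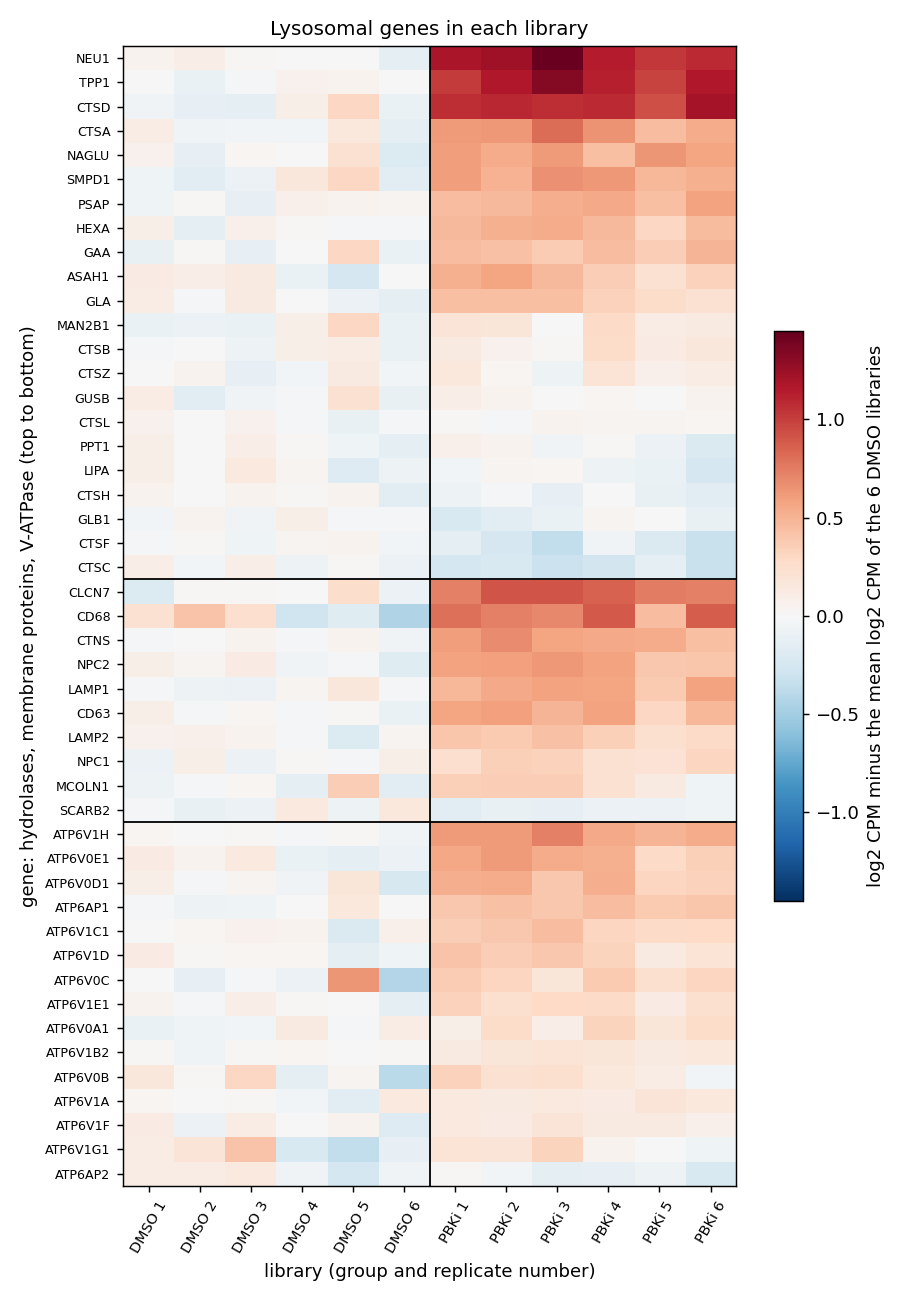
Log2 CPM of each gene in each of the 12 libraries minus its mean log2 CPM over the 6 DMSO libraries, with hydrolases at the top, then membrane proteins, then V-ATPase subunits. NEU1, TPP1 and CTSD are raised in all 6 PBKi libraries, and DMSO replicate 5 stands apart for ATP6V0C at 133.5 CPM.

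The promoters of the genes with the largest changes are given first, since the CACGTG element bears on how lysosomal genes are known to be controlled. Promoter sequences from RefSeq (GRCh38.p14) were matched for 36 of the 47 genes. No entry was matched for ASAH1, ATP6V0E1, ATP6V1A, ATP6V1B2, ATP6V1C1, ATP6V1H, CTSB, HEXA, LAMP2, NAGLU and PSAP. The 250 bases before the start site are printed 5′ to 3′ on the strand of the gene, with TCACGTG, its reverse complement CACGTGA, and TCATGTGA or TCACATGA in capitals. NEU1 (chr6:31862822-31863071, minus strand) holds TCACGTG at position -127, counted back from the start site. CTSD (chr11:1763928-1764177, minus strand) holds the reverse complement at position -47.
NEU1: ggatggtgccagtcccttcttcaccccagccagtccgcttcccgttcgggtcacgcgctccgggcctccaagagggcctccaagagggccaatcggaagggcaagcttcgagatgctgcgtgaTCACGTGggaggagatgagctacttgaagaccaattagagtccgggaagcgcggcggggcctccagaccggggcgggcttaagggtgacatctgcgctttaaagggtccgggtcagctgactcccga
CTSD: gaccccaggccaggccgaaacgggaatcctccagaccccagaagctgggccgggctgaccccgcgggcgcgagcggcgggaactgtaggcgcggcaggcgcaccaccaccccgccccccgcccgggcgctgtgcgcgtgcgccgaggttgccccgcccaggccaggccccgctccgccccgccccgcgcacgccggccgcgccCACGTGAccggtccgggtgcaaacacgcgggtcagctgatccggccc

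CLCN7 (chr16:1475029-1475278, minus strand) holds TCACGTG at positions -48 and -28. LAMP1 (chr13:113296989-113297238, plus strand) was added after its values were seen because 5 copies of CACGTG lie within its 250 bases. TPP1 (chr11:6619423-6619672, minus strand) lacks TCACGTG and holds the variant TCATGTGA at position -21 and its reverse complement at position -9.
CLCN7: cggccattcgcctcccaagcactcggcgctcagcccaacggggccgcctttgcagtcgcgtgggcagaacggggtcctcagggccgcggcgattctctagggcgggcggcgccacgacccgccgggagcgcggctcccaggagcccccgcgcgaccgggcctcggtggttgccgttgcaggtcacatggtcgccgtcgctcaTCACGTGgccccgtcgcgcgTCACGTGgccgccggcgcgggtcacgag
LAMP1: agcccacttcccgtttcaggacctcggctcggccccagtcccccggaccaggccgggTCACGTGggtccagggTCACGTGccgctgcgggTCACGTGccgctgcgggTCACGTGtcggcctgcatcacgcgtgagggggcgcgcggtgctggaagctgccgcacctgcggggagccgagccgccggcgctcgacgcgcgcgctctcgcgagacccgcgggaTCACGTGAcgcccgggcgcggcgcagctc
TPP1: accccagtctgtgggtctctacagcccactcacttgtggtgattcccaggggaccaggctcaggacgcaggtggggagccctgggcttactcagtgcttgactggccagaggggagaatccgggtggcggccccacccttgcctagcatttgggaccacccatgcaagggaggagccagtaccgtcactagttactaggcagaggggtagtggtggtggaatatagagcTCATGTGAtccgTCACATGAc

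The search covered both strands from 250 bases before to 50 bases after each start site, and TCACGTG contains CACGTG. The 7-base element was present in 11 of the 36 genes (30.6%), against 7.19% of the 10650 tested genes with a RefSeq entry. Counted by promoter, it was present in 11 of the 49 promoters of these genes (22.4%), against 3.71% of all 35116 promoters. The core CACGTG was found in 12 genes (33.3%), against 12.7% of tested genes with an entry. The palindrome TCACGTGA was present in 6 genes (16.7% against 2.30%), and TCATGTGA in 4 (11.1% against 1.20%). TCACGTGA flanked by G before and C after was present in 3 genes (8.33% against 0.930%), whose median log2 fold change was 0.23, against 0.27 in the 33 genes without it. Of the 11 genes with TCACGTG, ATP6V0D1, CLCN7, CTSA, CTSD, GAA, LAMP1, MCOLN1 and NEU1 were higher in PBKi, CTSF was lower, and ATP6V0B and ATP6V1G1 did not pass the test. Their median log2 fold change was 0.43. Of the 25 genes without it, 12 were higher, with a median of 0.20. These matches describe letters in a window and no binding was measured.

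Hydrolases gave the largest single changes, and the 3 genes with the largest log2 fold change act on different substrates. NEU1 (ENSG00000204386, GRCh37 chr6:31825436-31830682), a sialidase that removes terminal sialic acid from glycoproteins and glycolipids, had 33.8 CPM in the lowest DMSO library, a median of 37.6 and a highest value of 39.8. In PBKi the lowest value was 76.0 CPM, the median 83.8 and the highest 101.1. Every PBKi library thus lay far above every DMSO library. The means were 37.4 ± 2.03 CPM (SD, n = 6) and 85.2 ± 8.85 CPM (SD, n = 6), a 2.28-fold difference (log2 fold change 1.19, SE 0.067, adjusted p = 3.97e-10 by edgeR).

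TPP1 (GRCh37 chr11:6633999-6640679) encodes tripeptidyl peptidase, an exopeptidase that trims tripeptides from protein ends. Its DMSO values ran from 76.1 CPM through a median of 81.5 to 85.3 CPM, and its PBKi values from 161 through 180 to 205 CPM. The DMSO libraries were tightly grouped and the PBKi libraries were spread more widely, with replicate 3 highest. The log2 fold change was 1.13 (SE 0.058, adjusted p = 1.03e-10 by edgeR).

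CTSD (GRCh37 chr11:1773982-1785803), the aspartic protease cathepsin D, had DMSO values of 82.6 to 111 CPM (median 85.9) and PBKi values of 172 to 209 CPM (median 190). DMSO replicate 5 was the highest DMSO library but remained below all of PBKi. The log2 fold change was 1.07 (SE 0.071, adjusted p = 2.76e-09 by edgeR). A read-through gene, ENSG00000250644, shares 62.1% of the canonical CTSD transcript in the annotation and had 0 counts in every library. These counts do not show whether reads on the shared part were set aside as ambiguous and so lost to CTSD.

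The remaining proteases did not move together. CTSA, the carboxypeptidase that also protects NEU1 in a complex, rose from 36.4 ± 2.80 to 55.8 ± 4.73 CPM (SD, n = 6 in each group), with a log2 fold change of 0.62. In the annotation 10.8% of its transcript is shared with PLTP on the opposite strand. By contrast CTSC, the dipeptidyl peptidase that activates granule serine proteases, fell. Its DMSO libraries ran from 87.1 to 99.2 CPM (median 91.7) and its PBKi libraries from 74.2 to 84.9 CPM (median 77.4), with no overlap (log2 fold change -0.25, SE 0.052, adjusted p = 0.000856 by edgeR). CTSF, a cysteine cathepsin, also fell, from 46.8 to 50.5 CPM (median 48.8) in DMSO to 37.9 to 47.01 CPM (median 41.7) in PBKi. Here the groups overlapped narrowly, and the log2 fold change was -0.21 (SE 0.058, adjusted p = 0.00646 by edgeR). This call was lost without PBKi replicates 3 and 6. The other 4 cysteine cathepsins did not pass the test, with log2 fold changes of 0.13 for CTSB, 0.08 for CTSZ, 0.02 for CTSL and -0.08 for CTSH. Of the 9 proteases, 3 were higher and 2 were lower, with a median log2 fold change of 0.08.

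Glycosidases were higher in 5 of 8 cases and none was lower, with a median log2 fold change of 0.39. After NEU1 came NAGLU, which acts on heparan sulphate, at 0.56 (adjusted p = 2.77e-06 by edgeR), and HEXA, the alpha subunit of the hexosaminidase that degrades GM2 ganglioside, at 0.46 (adjusted p = 2.93e-06). GAA, which degrades glycogen, had a log2 fold change of 0.42 (adjusted p = 4.91e-05), and its highest DMSO library, replicate 5 at 74.1 CPM, lay just below the lowest PBKi library at 77.3 CPM. GLA, the alpha-galactosidase that acts on globotriaosylceramide, ran from 31.2 to 37.2 CPM (median 33.7) in DMSO and from 39.7 to 46.2 CPM (median 44.6) in PBKi. Its groups did not overlap, and its log2 fold change of 0.35 (SE 0.062, adjusted p = 0.000209 by edgeR) was the smallest of the hydrolases called higher. MAN2B1, GUSB and GLB1 had log2 fold changes of 0.14, 0.03 and -0.09 and did not pass the test.

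Among genes of lipid and acyl breakdown, 3 of 5 were higher, with a median log2 fold change of 0.41. PSAP encodes the precursor of the saposins, small proteins that present sphingolipids to their hydrolases, and was the most abundant hydrolase-class transcript per kilobase, at 290 RPKM in DMSO and 411 RPKM in PBKi. Its DMSO libraries ran from 735 to 836 CPM (median 812) and its PBKi libraries from 1078 to 1190 CPM (median 1124). No library of either group came near the other, and the log2 fold change was 0.50 (SE 0.050, adjusted p = 4.72e-07 by edgeR). SMPD1, the acid sphingomyelinase, and ASAH1, the acid ceramidase, act on consecutive steps of sphingomyelin breakdown and had log2 fold changes of 0.56 (adjusted p = 1.20e-05) and 0.41 (adjusted p = 0.000193). LIPA, the acid lipase for cholesteryl esters, and PPT1, a thioesterase, did not pass the test at -0.07 and -0.03.

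Levels of hydrolases can be compared between genes per kilobase of canonical transcript. The 7 hydrolases with the lowest levels on this scale, all at or below 23.3 RPKM in DMSO, were all called higher, whereas 4 of the other 15 were. This split was chosen after the values were seen and was not tested.

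**Figure D3:**
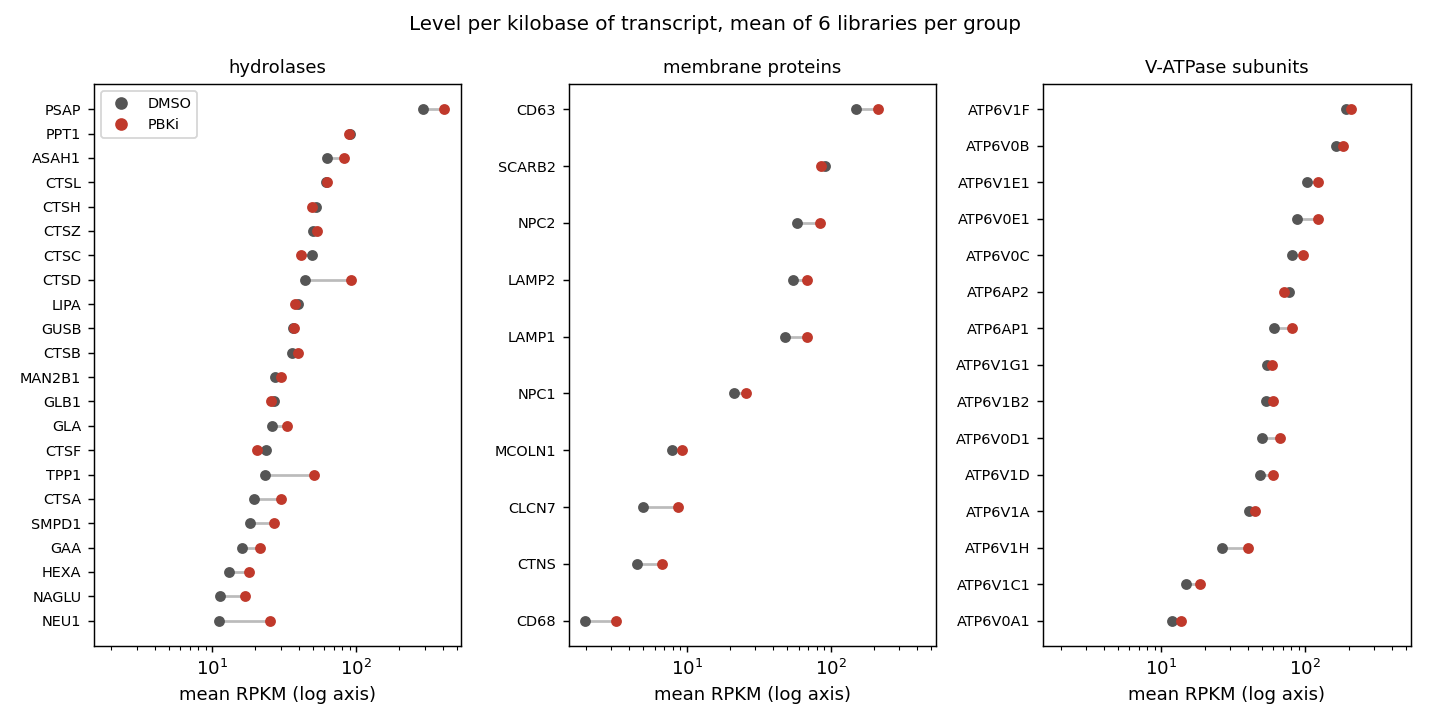
Mean level per kilobase of canonical transcript (RPKM, log axis) for the 47 genes, in a panel for each class. Each gene has a grey point for DMSO and a red point for PBKi, joined by a line. PSAP has the highest levels, at 290 RPKM in DMSO and 411 RPKM in PBKi, and CD68 the lowest, at 1.97 and 3.24 RPKM.

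In the membrane class, transporters and channels, with the soluble carrier NPC2 counted among them, were higher in 5 of 5 cases. Their median log2 fold change was 0.53. CLCN7, the chloride-proton exchanger of the lysosomal membrane, ran from 17.9 to 24.6 CPM (median 20.6) in DMSO and from 34.0 to 38.8 CPM (median 35.7) in PBKi. With means of 20.6 ± 2.23 and 36.2 ± 2.27 CPM (SD, n = 6 each), its libraries separated without overlap (log2 fold change 0.82, SE 0.071, adjusted p = 8.75e-08 by edgeR). OSTM1, its beta subunit, was on the list of other lysosomal genes and was also higher, at a log2 fold change of 0.49.

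CTNS, the cystine exporter cystinosin, had DMSO values of 18.0 to 19.4 CPM (median 18.5) and PBKi values of 25.3 to 30.1 CPM (median 27.6). The groups were well apart, with a log2 fold change of 0.57 (SE 0.057, adjusted p = 5.12e-07 by edgeR). NPC2 and NPC1 pass cholesterol from the lumen to the membrane. NPC2, the soluble lumenal carrier, had a log2 fold change of 0.53 (adjusted p = 2.66e-06). NPC1, the membrane protein, ran from 95.8 to 107 CPM (median 102) in DMSO and from 117 to 129 CPM (median 123) in PBKi, again without overlap (log2 fold change 0.28, SE 0.049, adjusted p = 0.000243 by edgeR).

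MCOLN1, the lysosomal calcium channel TRPML1, was at the limit of the test. DMSO values ran from 14.7 to 21.0 CPM (median 15.9) and PBKi values from 15.7 to 21.0 CPM (median 20.0). These ranges overlapped almost wholly, with DMSO replicate 5 at 21.0 CPM, whereas the other DMSO libraries did not exceed 16.7 CPM. Of the PBKi libraries only replicate 6, at 15.7 CPM, lay within the range of those other DMSO libraries. The log2 fold change was 0.23 (SE 0.091, adjusted p = 0.0496 by edgeR), the two-sided exact permutation test gave p = 0.0584, and the call was kept in 3 of the 12 fits that left out a library.

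Glycoproteins and receptors were higher in 4 of 5 cases, with a median log2 fold change of 0.51. LAMP1 and LAMP2 line the lumenal face of the membrane. LAMP1 rose from 129 ± 8.73 to 186 ± 10.1 CPM (SD, n = 6 in each group), with a log2 fold change of 0.53 (adjusted p = 7.24e-07 by edgeR). LAMP2 ran from 308 to 373 CPM (median 366) in DMSO and from 417 to 476 CPM (median 455) in PBKi, without overlap and with a log2 fold change of 0.34 (SE 0.056, adjusted p = 0.000105 by edgeR).

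CD63, a tetraspanin of late endosomes and lysosomes, had the highest level per kilobase of the class, at 150 RPKM in DMSO and 212 RPKM in PBKi. Its libraries ran from 143 to 162 CPM (median 153) in DMSO and from 189 to 230 CPM (median 221) in PBKi, well apart (log2 fold change 0.51, SE 0.054, adjusted p = 1.18e-06 by edgeR). SCARB2, an abundant glycoprotein of the lysosomal membrane, did not follow, with 397 to 477 CPM (median 413) in DMSO and 385 to 410 CPM (median 401) in PBKi. Its groups overlapped and its log2 fold change was -0.10 (adjusted p = 0.136 by edgeR).

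CD68, a glycoprotein best known from macrophages, had the lowest level of the 47 genes per kilobase. It ran from 2.43 to 4.39 CPM (median 3.38) in DMSO and from 4.50 to 6.07 CPM (median 5.59) in PBKi, which rested on 27 to 108 counts and 67 to 136 counts per library. The groups were close but did not overlap (log2 fold change 0.68, SE 0.14, adjusted p = 0.000642 by edgeR). The leukocyte markers other than CD163 summed to 0.671 to 0.974 CPM in DMSO and to 0.691 to 1.40 CPM in PBKi, and their part in the CD68 result was not tested.

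**Figure D4:**
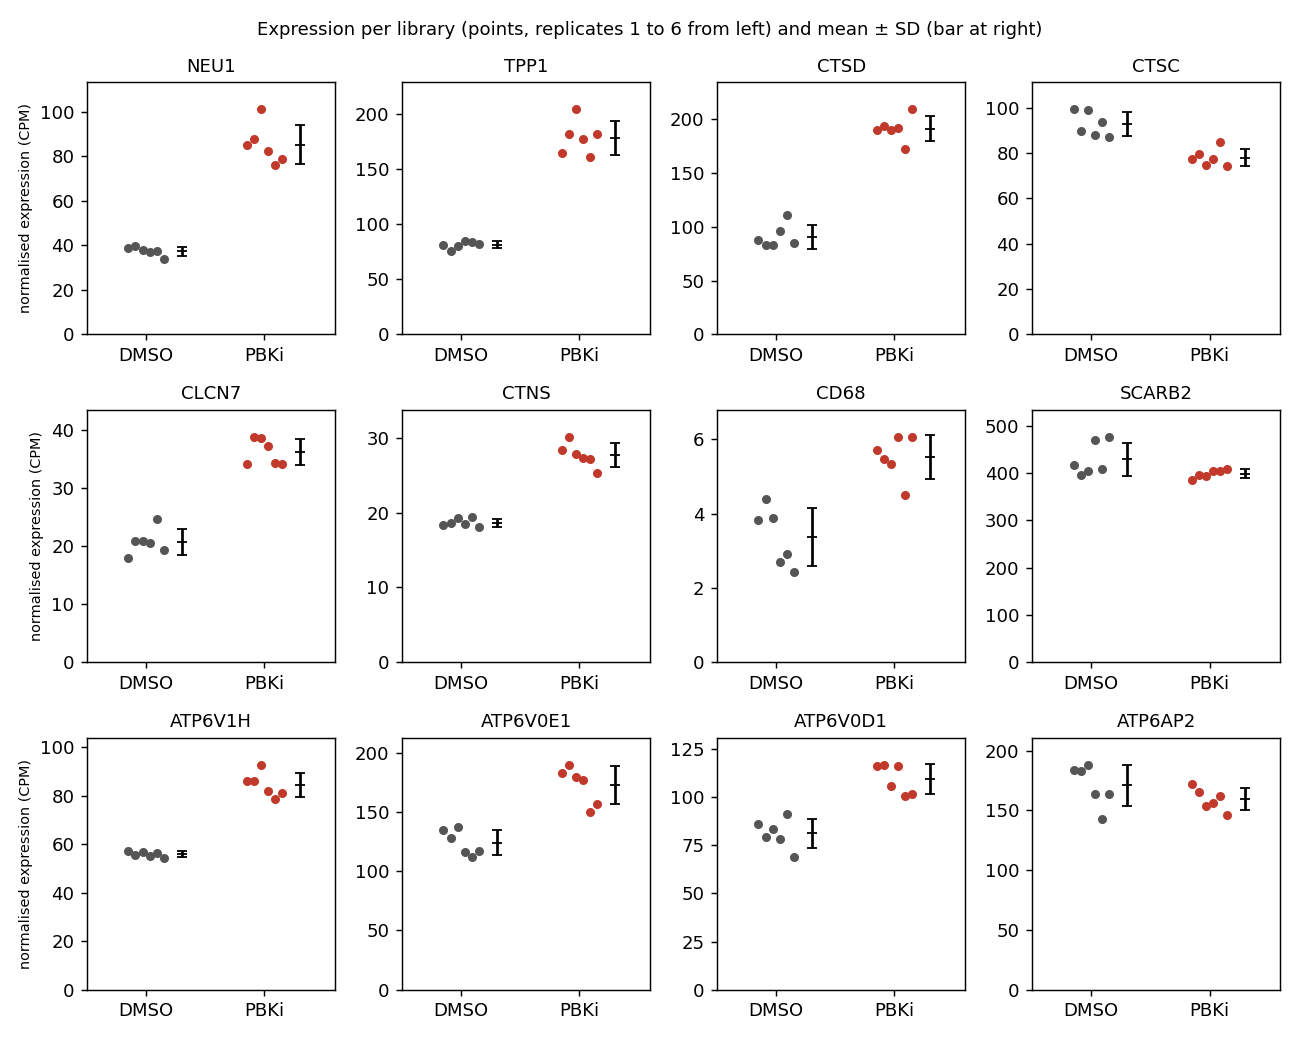
Normalised expression (CPM, axes from 0) in each library for 4 genes of each class, with points for replicates 1 to 6 from left to right and bars for mean ± SD (n = 6). The PBKi points lie above all DMSO points for the 3 hydrolases, 3 membrane proteins and 3 V-ATPase subunits with raised levels, below them for CTSC, and overlap them for SCARB2 and ATP6AP2.

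The V-ATPase subunits had the narrowest range of log2 fold changes of the 3 classes. In the V1 sector, 6 of 8 subunits were higher, with a median log2 fold change of 0.20. ATP6V1H, a regulatory subunit that joins V1 to V0, had the largest change. It ran from 54.1 to 57.2 CPM (median 56.1) in DMSO and from 78.7 to 92.8 CPM (median 83.8) in PBKi, with no overlap (log2 fold change 0.59, SE 0.049, adjusted p = 5.03e-08 by edgeR). The only V-ATPase gene past a log2 fold change of 0.5 was this subunit.

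The catalytic and nucleotide-binding subunits of V1 had small differences. ATP6V1A, the catalytic subunit, ran from 165 to 204 CPM (median 185) in DMSO and from 199.9 to 209.6 CPM (median 203) in PBKi. These ranges overlapped, the log2 fold change was 0.14 (SE 0.050, adjusted p = 0.0283 by edgeR), and the call was kept in 10 of 12 fits that left out a library. ATP6V1B2, its partner, ran from 146 to 155 CPM (median 153) in DMSO and from 166 to 175 CPM (median 171) in PBKi, a small difference without overlap (log2 fold change 0.16, SE 0.041, adjusted p = 0.00454 by edgeR).

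Of the stalk subunits, ATP6V1C1, ATP6V1D and ATP6V1E1 had log2 fold changes of 0.34, 0.30 and 0.25, each without overlap between the groups. ATP6V1F, the most abundant V-ATPase transcript per kilobase at 190 RPKM in DMSO, ran from 113 to 140 CPM (median 130) in DMSO and from 135 to 146 CPM (median 141) in PBKi. It overlapped between the groups and did not pass the test (log2 fold change 0.13, adjusted p = 0.0724 by edgeR), nor did ATP6V1G1 at 0.09. In the annotation 23.2% of the ATP6V1F transcript is shared with KCP on the opposite strand.

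In the V0 sector, 3 of 5 subunits were higher, with a median log2 fold change of 0.27. ATP6V0E1, a small membrane subunit, ran from 112 to 137 CPM (median 122) in DMSO and from 149.7 to 189.9 CPM (median 178) in PBKi. ATP6V0D1, which couples the stalk to the proton ring, ran from 68.6 to 91.2 CPM (median 81.3) in DMSO and from 100.4 to 117 CPM (median 111) in PBKi. For neither did the groups overlap, and the log2 fold changes were 0.47 (SE 0.068, adjusted p = 2.80e-05 by edgeR) and 0.43 (SE 0.066, adjusted p = 4.98e-05 by edgeR).

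ATP6V0A1, a proton-path subunit, ran from 45.6 to 53.3 CPM (median 47.6) in DMSO and from 51.6 to 61.1 CPM (median 57.0) in PBKi. Some libraries overlapped, and the log2 fold change was 0.20 (SE 0.059, adjusted p = 0.0102 by edgeR). The proton ring subunits ATP6V0C and ATP6V0B did not pass the test, at log2 fold changes of 0.27 (adjusted p = 0.0773) and 0.16 (adjusted p = 0.178 by edgeR). For ATP6V0C, DMSO replicate 5 lay at 133.5 CPM, above the highest PBKi library at 112 CPM, whereas the other DMSO libraries lay between 64.3 and 86.5 CPM. Without DMSO replicate 5, 34 of the 47 genes were higher and 3 were lower, with ATP6V0C among those gained. That fit also called more genes overall in both directions. It called 3364 of 14762 genes tested higher and 3250 lower, against 2921 and 3125 of 14505 with all libraries.

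The accessory subunits diverged. ATP6AP1, which takes part in assembly of the pump, rose from 124 ± 7.46 to 164 ± 2.93 CPM (SD, n = 6 each) with a log2 fold change of 0.41 (adjusted p = 2.94e-06 by edgeR). ATP6AP2, the prorenin receptor, had 171 ± 17.4 and 159 ± 9.19 CPM, a log2 fold change of -0.10 that did not pass the test (adjusted p = 0.210 by edgeR). It was called lower without DMSO replicate 5 and in replicates 1 to 3 alone.

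For each of the 28 genes without overlap, the two-sided exact permutation test could only give p = 0.00216, the smallest value for 12 libraries. It restates their separation and is no further test of it. In replicates 1 to 3 the median log2 fold changes were 0.30 for hydrolases, 0.50 for membrane proteins and 0.26 for V-ATPase subunits, and in replicates 4 to 6 they were 0.25, 0.48 and 0.23. A test of whether the response differed between these sets called 0 of 14505 genes by edgeR's quasi-likelihood test at adjusted p under 0.05, with 700 genes at unadjusted p under 0.05, of which 1 was among the 47.

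Other lysosomal genes were taken from 4 lists by function. Of 97 listed, 91 were tested, 37 were higher, 10 were lower, and the median log2 fold change was 0.14. By list, 16 of 33 lumenal hydrolases and activators were higher and 4 lower, 11 of 27 membrane proteins were higher and 2 lower, 4 of 16 V-ATPase subunits and assembly factors were higher and 3 lower, and 6 of 15 sorting factors were higher and 1 lower. Over all 91, the shares were 40.7% higher and 10.99% lower, against 20.1% and 21.5% of all genes tested, and for the V-ATPase list they were 25% and 18.8%, near that background. No test between lists was made. The median level in DMSO was 9.87 RPKM over the 91 genes and 44.2 RPKM over the 47. The part of expression level in these shares was not tested.

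Among lumenal genes, the extremes were CTSO, a cysteine cathepsin (log2 fold change 1.11, from 3.50 to 7.57 CPM), SCPEP1, a serine carboxypeptidase (0.82), HYAL1, a hyaluronidase (-1.02, from 2.32 to 1.11 CPM), and GGH, which trims folate polyglutamates (-0.47). Among membrane genes they were LAMP3 (3.44, adjusted p = 3.21e-11 by edgeR), the lysine and arginine exporter gene PQLC2 (0.83), the transporter gene ABCA2 (-0.35) and TMEM59 (-0.18), whose call was kept in 7 of the 12 fits that left out a library. LAMP3, a LAMP family member, went from 1.70 ± 0.223 CPM to 18.0 ± 3.89 CPM (SD, n = 6 each), a larger log2 difference than in any of the 47 genes.

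Among V-ATPase genes outside the 15, NCOA7, a TLDc protein that binds the pump, had the highest log2 fold change (1.29, from 40.03 to 97.31 CPM), followed by WDR7 (0.48). ATP6V1C2, a C subunit isoform, was lower (-0.75, from 1.06 to 0.653 CPM), as was OXR1, another TLDc protein (-0.33). In the sorting list, IGF2R, the mannose 6-phosphate receptor that delivers hydrolases, was highest (0.72, from 203 to 333 CPM), then SUMF1, which activates sulphatases (0.38), and the adaptor gene GGA1 was the only lower gene (-0.23).

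Of the transcription factors named above, TFE3 rose from 61.7 ± 3.93 to 91.1 ± 4.11 CPM (SD, n = 6 each) with a log2 fold change of 0.57 (adjusted p = 2.08e-07 by edgeR) and no overlap. TFEB had a log2 fold change of -0.29 (adjusted p = 0.0290 by edgeR) with overlapping groups, at 8.31 to 12.7 CPM in DMSO and 7.45 to 9.59 CPM in PBKi. Its call was kept in 6 of the 12 fits that left out a library and in neither replicates 1 to 3 nor replicates 4 to 6 alone. MITF had 12.2 CPM in each group and did not pass the test. TFEC was not tested, with at most 2 counts in any library.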

How the data were processed

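C4-2 libraries (6 DMSO, 6 PBKi) were sequenced as single-end reads. Per the labels and methods, the authors aligned reads with TopHat2 2.0.4 to GRCh37, counted reads per gene with HTSeq 0.5.3p9 and deposited raw counts for each of 47 lane files, without normalisation. The strand setting is not given in the sources used here, so reads of overlapping genes on opposite strands may not be separated.

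Lanes of a library differed by about as much as sampling noise gives (chi-square per degree of freedom 0.993 to 1.02, not tested) and were summed. HTSeq rows that name no gene were left out of library sizes: reads outside genes were 5.74% to 9.30% and ambiguous reads 3.87% to 4.10% in DMSO and 4.16% to 4.35% in PBKi. Genes reaching 10 counts in 6 or more libraries were tested with edgeR 4.0.16 in R 4.3.3 (TMM factors, quasi-likelihood F-test, no covariates), with Benjamini-Hochberg adjustment over 14505 genes at 0.05. SEs follow from the log2 fold change and F. For permutation tests, log2 CPM was computed with a prior count of 2. RPKM is CPM per kilobase of canonical transcript (GENCODE 44 on GRCh37), and gene coordinates come from the same annotation. Of the 47 genes, CD68 had the fewest counts. SDs and SEs cover the spread between libraries.

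The 47 genes and the other lists were chosen with earlier results of these data known. Genes given in full were, per class, the 3 highest and 3 lowest log2 fold changes among called genes, and the most abundant per kilobase. Of each other list, the 2 highest and 2 lowest called genes were named. SCARB2, ATP6V0C, OSTM1 and the other genes of the classes were described for their roles. In simulated counts for 14505 genes, 100 genes were changed by 0.5 (log2) and 100 by 1. Of these, edgeR recovered 70% and 90%, and 4.76% of its calls were false. In the data 41.7% of genes were called, so these rates need not hold there. Alternatives were DESeq2 1.42.0, limma-voom (limma 3.58.1), RLE factors, library size alone, other count filters, lanes 6 to 8, a covariate for replicates 1 to 3 against 4 to 6, a replicate block, stricter thresholds and libraries left out.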

Additional observations from a re-analysis of the deposited data

Results flagged for a closer look

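Within each group of 6 libraries, the highest or lowest value of each of the 47 genes was compared with the rest by Dixon's criterion, in 94 groups of values, of which 8 stood apart. Chance alone gives about 5% of groups. Of the 8 values, 6 came from DMSO replicate 5, the library with 3 lanes and the fewest reads. It was highest for GAA (74.1 CPM against 55.7 to 61.3 in the other DMSO libraries), MCOLN1 (21.0 against 14.7 to 16.7), ATP6V0C (133.5 against 64.3 to 86.5) and ATP6AP1 (138.5 against 117.8 to 124.7). It was lowest for LAMP2 (308 against 349.8 to 373) and ATP6V1C1 (71.5 against 82.4 to 87.3). CTSH was lowest in DMSO replicate 6 (101.4 CPM against 112 to 116), and HEXA was lowest in PBKi replicate 5 (76.8 CPM against 86.3 to 90.8). The part of depth or of any other property of these libraries in these values was not tested.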

How the results depend on the processing

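No called gene among the 47 changed direction under the alternatives tried. Of the 30 genes called higher, 27 kept the call under all 22 other tests, normalisations, filters, covariates and fits with libraries left out, and of the 2 called lower CTSC did. These 22 exclude the fits on replicates 1 to 3 or 4 to 6 alone and the threshold of 0.01, at which MCOLN1, ATP6V0A1 and ATP6V1A were lost. Under the 22, the exceptions were MCOLN1, ATP6V1A, ATP6V1B2 (lost without the low-count filter) and CTSF (lost without PBKi replicates 3 and 6, leaving 1 hydrolase lower). Of the 47 genes, DESeq2 and limma-voom each called 31 higher. Over all genes DESeq2 called 2961 higher and 3167 lower, and limma-voom 3023 and 3143. Scaling by library size alone called 34, and moved the calls over all genes from 2921 higher and 3125 lower to 3602 and 2402. Calls of higher genes also outnumbered those of lower genes without the low-count filter (3370 and 2908). With log2 fold change of at least 0.5, hydrolases were higher in 7 cases and lower in 0, V-ATPase subunits were higher in 1, and other lysosomal genes were higher in 10 and lower in 2. Replicates 4 to 6 alone kept 25 of the 30 genes called higher, losing NPC1, MCOLN1, ATP6V0A1, ATP6V1A and ATP6V1B2, and lost CTSC and CTSF, leaving 0 hydrolases lower. They gave 19 other lysosomal genes higher and 5 lower. Replicates 1 to 3 alone, as many libraries, kept all 30 and gave 2 hydrolases lower, 41 other lysosomal genes higher and 9 lower, a hydrolase median of 0.30 and 1 V-ATPase subunit lower (ATP6AP2), which was also called without DMSO replicate 5. Over all genes, replicates 1 to 3 called 3376 higher and 3184 lower, and replicates 4 to 6 called 1303 and 1216. The cause of this difference was not tested. With each library left out in turn, V-ATPase subunits were higher in 9 to 12 cases and lower in 0 to 1.

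Same-numbered libraries had correlated deviations (0.0887 to 0.299), and 4 of 6 pairs matched their own number best, but the labels do not say that numbers mark shared cultures and replicate 5 was under 0.1. The replicate block called 35 of the 47 genes higher and 2 lower, gaining CTSB, MAN2B1, ATP6V0B, ATP6V0C and ATP6V1F. Calls also rose over all 14505 genes tested, to 3485 higher and 3803 lower, against 2921 and 3125 without the block.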
